A study of Mus musculus with 12 samples.

Results

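The genes described here are 7 ADAM proteases (Adam8, Adam9, Adam10, Adam12, Adam15, Adam17 and Adam19) and 3 members of the rhomboid family (Rhbdl2, Rhbdf1 and Rhbdf2). These 10 genes, out of 32498 rows with a gene name, were chosen by name, with 3 sets of measured values in view. Those values were how far GA differed from vehicle, the co-variation with S100a9, a calcium-binding protein abundant in neutrophils, and the co-variation with Krt13, a keratin of the oral mucosal epithelium. All 3 are therefore given as descriptions without a test, and tests of these genes were kept to comparisons other than these 3.

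Bulk RNA-seq was performed on tongues of C57BL/6 mice, bought at 5 weeks of age, that had all received 4-nitroquinoline 1-oxide (4NQO), a DNA-damaging oral carcinogen, in drinking water at 100 µg/mL for 16 weeks. The GA group (6 libraries) received gallic acid, a plant phenolic acid, at 100 mg/kg by gavage 5 times per week, starting 4 weeks into the carcinogen exposure and ending at sacrifice. The vehicle group (6 libraries) had the same carcinogen and the same gavage schedule with an equal volume of vehicle. The labels describe the cells as tumour and tumour-associated, name no animal and leave out the sex, and each library was taken as 1 mouse, so p-values measure the spread between these libraries. There was no group without 4NQO.

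ADAM proteases are membrane-anchored metalloproteases. Many of them cut other membrane proteins just outside the cell and release the outer part, a step called shedding that frees growth factors, cytokines and adhesion molecules. Rhomboid proteases are serine proteases that cut within the membrane, whereas the iRhoms, encoded by Rhbdf1 and Rhbdf2, have lost the catalytic residues and escort ADAM17 out of the endoplasmic reticulum. In squamous epithelium this machinery is best known for releasing ligands of the EGF receptor, and in leukocytes for releasing TNF and L-selectin.

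The deposited values were FPKM, reads divided by gene length and by library total, and were scaled between libraries here, so levels of different genes can be compared per length. Library totals, recovered from the steps between low values, lay between 18040852 and 21771356 reads in the vehicle group and between 21238072 and 25192689 in the GA group. Libraries 3 and 5 of the vehicle group and library 2 of the GA group had at least 8765 FPKM of Lipf, a lipase of tongue glands, against at most 0.508 FPKM in the other 9. Y-linked reads were present in 4 vehicle libraries and in 1 GA library, so sex and treatment were partly confounded. In the comparison of the groups with limma, 0 of 16847 tested genes (0.0%) were called at an adjusted p below 0.1 and a log2 fold change of at least 0.58, 364 genes (2.16%) had an unadjusted p below 0.05, and limma with voom on recovered reads also called 0 genes, with 329 at that unadjusted p.

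Promoter windows of 250 bases ending at an annotated transcript start were available from RefSeq (GRCm38.p6) for 6 of the 10 genes. Shown are those of Adam8 and Rhbdl2, with the largest differences between the groups in the limma fit, and of Adam15 and Adam17, with the steadiest levels, a choice made after the values were seen. Each is written 5′ to 3′ on the strand of its gene, with every CG dinucleotide in capitals. Adam8 lies at chr7:139992563-139992812 on the minus strand, Rhbdl2 at chr4:123787625-123787874 on the plus strand, Adam15 at chr3:89350029-89350278 on the minus strand and Adam17 at chr12:21373633-21373882 on the minus strand.
Adam8: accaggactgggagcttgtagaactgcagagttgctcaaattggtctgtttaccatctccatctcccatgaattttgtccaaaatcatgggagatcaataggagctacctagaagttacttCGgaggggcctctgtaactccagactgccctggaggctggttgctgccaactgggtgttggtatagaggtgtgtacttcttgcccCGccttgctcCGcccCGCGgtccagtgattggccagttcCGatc
Rhbdl2: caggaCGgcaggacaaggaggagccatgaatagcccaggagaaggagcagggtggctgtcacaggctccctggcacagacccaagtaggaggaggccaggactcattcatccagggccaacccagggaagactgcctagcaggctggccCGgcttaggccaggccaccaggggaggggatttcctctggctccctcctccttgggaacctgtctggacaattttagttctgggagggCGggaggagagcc
Adam15: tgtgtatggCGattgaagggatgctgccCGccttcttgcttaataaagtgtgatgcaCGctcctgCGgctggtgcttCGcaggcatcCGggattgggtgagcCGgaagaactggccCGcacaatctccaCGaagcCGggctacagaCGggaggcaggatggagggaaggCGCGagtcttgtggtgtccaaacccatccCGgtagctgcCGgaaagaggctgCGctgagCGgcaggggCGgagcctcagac
Adam17: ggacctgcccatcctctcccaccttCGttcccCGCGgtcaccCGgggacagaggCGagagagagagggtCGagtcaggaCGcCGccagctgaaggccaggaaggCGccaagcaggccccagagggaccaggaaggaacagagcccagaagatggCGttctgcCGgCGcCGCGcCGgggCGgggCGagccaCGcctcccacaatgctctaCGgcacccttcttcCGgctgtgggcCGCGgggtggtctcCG

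CG dinucleotides were scarcer in the windows of Adam8 and Rhbdl2 than in those of Adam15 and Adam17. Adam8 had 6, equal to the median of 32841 mouse windows of this length, of which 92.1% hold at least 1. Rhbdl2 had 3, and a window at another of its starts had 1. Adam15 had 18 and Adam17 had 23, above the upper quartile of 16, and Adam10 had 29, the most of the 9 windows. The GC box GGGCGG, read on both strands and itself containing a CG, was present in the 4 windows shown and in that of Adam10, and in 32.7% of all windows. The 3 windows of Adam19 held 4 to 7 CG dinucleotides and no GC box. These counts describe the letters of the windows and say nothing of the factors that bind there.

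All 10 genes were detected in all 12 libraries, over a wide span of levels. Adam10, the sheddase of Notch receptors and E-cadherin, was the most abundant, with a mean of 24.97 scaled FPKM over the 12 libraries. It was followed by Adam9 (18.9), Adam15 (14.6), Rhbdf1 (11.9), Adam17 (10.2), Rhbdf2 (6.27), Adam8 (4.53), Rhbdl2 (1.88), Adam19 (0.892) and Adam12 (0.333). Adam10 and Adam9 thus stood above the sheddase of TNF, Adam17, and both iRhoms, while Adam19 and Adam12 exceeded only 26.2% and 13.9% of tested genes. In this order 8 of 9 neighbours differed beyond the spread over libraries (exact two-sided sign-flip permutation tests within libraries, n = 12, adjusted p from 0.00146 to 0.0170). Rhbdf1 and Adam17 did not pass: the log2 difference was 0.19 with an SD of 0.39, Rhbdf1 was the higher in 8 of 12 libraries, and the adjusted p of the exact test was 0.114. This pair did pass when vehicle library 4, 5 or 6 was left out. Reads behind the values ranged from 1837 to 5206 per library for Adam10, from 75 to 224 for Rhbdl2 and from 17 to 337 for Adam12, so the levels of Adam12 carry the most counting error.

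**Figure D1:**
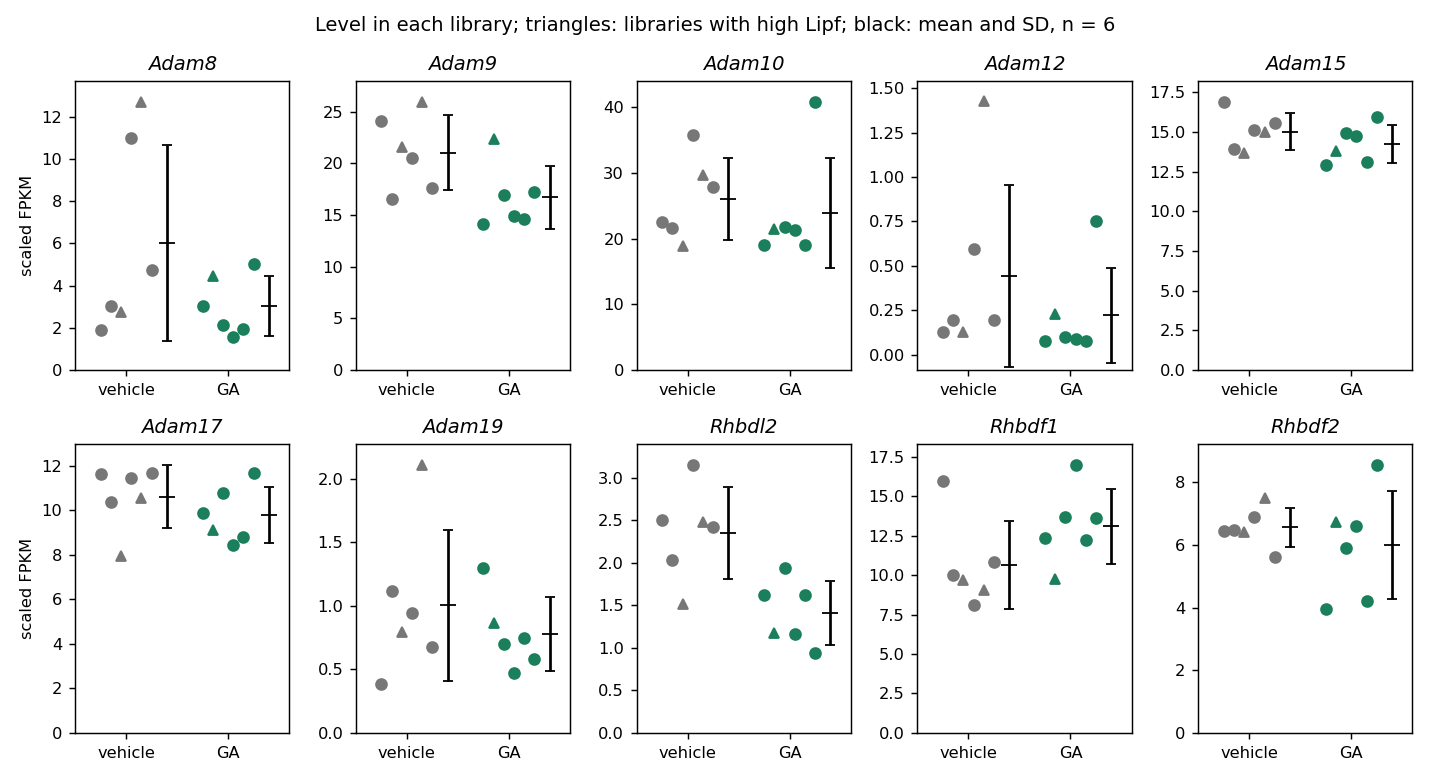
Level of each gene in scaled FPKM (vertical axes from 0, or just below 0 where the SD bar reaches lower) in the 6 vehicle libraries (grey) and the 6 GA libraries (green). Triangles mark the 3 libraries with high Lipf and black bars the mean and SD of each group; the groups overlap in all 10 panels, and the 2 highest values of Adam8 are vehicle libraries.

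Between libraries the genes varied very unequally. Adam12 differed by 18.3-fold between its lowest and highest library, Adam8 by 7.99-fold, Adam19 by 5.46-fold and Rhbdl2 by 3.34-fold. Adam15 differed by only 1.31-fold and Adam17 by 1.47-fold. On the log2 scale, the SD of Adam15 over the 12 libraries was 0.12, lower than in all but 1.74% of tested genes, and that of Adam17 was 0.19 (15.4%). The SD of Adam8 was 0.94 and that of Adam12 was 1.01, above 87.2% and 89.4% of tested genes.

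In the comparison of GA with vehicle, 9 of the 10 genes had a lower mean on the log2 scale with GA. Only Rhbdf1 had a higher one. Among all tested genes, 8265 of 16847 were lower. The median log2 difference was -0.20 for the 10 genes against 0.0042 over all tested genes. None of the 10 was called, and the groups overlapped for each of them. With GA, 6 of 6 libraries were below the vehicle median for Rhbdl2 alone, a pattern shown by 463 tested genes (2.75%). Since the genes were selected on this contrast, these counts are only a description. As a reference for size, 111 of 200 genes were called by this fit in simulated data when they had been changed by 1 on the log2 scale at the spread of these libraries. Those 200 were drawn from all tested genes, with independent normal values for each gene. The count thus does not apply to genes as variable as Adam8 and Adam12, or to tissue makeup shared between genes.

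Rhbdl2, a rhomboid protease that cuts EGF, thrombomodulin and B-type ephrins within the membrane, was low in most GA libraries. Its lowest, median and highest levels were 1.52, 2.44 and 3.15 scaled FPKM with vehicle and 0.942, 1.40 and 1.94 with GA. Of the vehicle libraries, 5 were above the highest GA library, and only vehicle library 3, which carried gland RNA, lay within the GA range. Means were 2.35 ± 0.542 and 1.41 ± 0.377 (SD, n = 6 per group), a log2 difference of -0.70 with a standard error of 0.20. It was -0.78 without the 3 libraries with high Lipf and between -0.82 and -0.60 when any library was left out. Rhbdl2 lies on chromosome 4 from 123787874 to 123829904 (GRCm38, exons of GENCODE M21).

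Adam8, a sheddase best known from neutrophils, monocytes and macrophages, is reported by the study as significantly downregulated with GA. The study used edgeR at an FDR below 0.1, whereas Adam8 was not called here. It had the largest log2 difference in this fit, but that difference rested on few libraries. That of Adam12 was larger with a pseudocount of 0.01, with voom on recovered reads, with a sex term from Y-linked reads and without GA library 6. That of Rhbdl2 was larger in 9 alternatives, among them those without vehicle library 4, without vehicle library 5 and without the libraries with high Lipf. Its lowest, median and highest levels were 1.90, 3.89 and 12.7 scaled FPKM with vehicle and 1.59, 2.59 and 5.03 with GA. Vehicle libraries 4 (11.01) and 5 (12.7) stood well above the other 10, which all lay between 1.59 and 5.03 and were mixed between the groups. The means were 6.02 ± 4.63 and 3.03 ± 1.42 (SD, n = 6 per group), a log2 difference of -0.74 with a standard error of 0.47. It was -0.46 without vehicle library 5 and -0.71 without the libraries with high Lipf. Restricted to the 7 libraries with no Y-linked reads (2 vehicle, 5 GA), it was -1.48. The 2 vehicle libraries there were 5 and 6, so this value rests largely on vehicle library 5. Adam8 lies on chromosome 7 from 139978932 to 139992562, and 0.992% of its exon bases overlap Gm16201 on the other strand.

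Adam12, a metalloprotease of growing mesenchyme and of several carcinomas, followed a pattern much like that of Adam8 at a far lower level. Its lowest, median and highest levels were 0.127, 0.196 and 1.43 scaled FPKM with vehicle and 0.0781, 0.0956 and 0.754 with GA. Vehicle library 5 (1.43), GA library 6 (0.754) and vehicle library 4 (0.592) were high, and the other 9 libraries were at or below 0.228. The log2 difference of -0.64 (standard error 0.54) became -0.26 without vehicle library 5 and -0.97 without GA library 6. It was -1.24 in the 7 with no Y-linked reads, where vehicle library 5 was 1 of 2 vehicle libraries. Adam12 lies on chromosome 7 from 133883199 to 134232146.

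Adam9, which sheds growth factors and cytokine receptors in many cell types, was lower in most GA libraries. Its lowest, median and highest levels were 16.5, 21.1 and 25.9 scaled FPKM with vehicle and 14.2, 15.9 and 22.3 with GA. Below every vehicle library were 3 GA libraries, and GA library 2, which carried gland RNA, was above the vehicle median. The means were 21.0 ± 3.62 and 16.7 ± 3.03 (SD, n = 6 per group) and the log2 difference was -0.33 (standard error 0.14), the same without the libraries with high Lipf and -0.27 without vehicle library 5. Adam9 lies on chromosome 8 from 24949611 to 25016927.

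The sheddases Adam10 and Adam17, which between them release Notch ectodomains, TNF and most EGF receptor ligands, had small differences between the groups. Adam10 had its lowest, median and highest levels at 18.9, 25.2 and 35.7 scaled FPKM with vehicle and at 19.1, 21.3 and 40.7 with GA. GA library 6 held the highest value of all 12 libraries, and the other 5 GA libraries lay between 19.1 and 21.8. The log2 difference of Adam10 was -0.15 (standard error 0.20), with -0.31 without that library and -0.05 without vehicle library 4. Adam17 ranged from 7.95 to 11.7 scaled FPKM with vehicle and from 8.46 to 11.7 with GA, with medians of 11.02 and 9.52 and a log2 difference of -0.11 (standard error 0.12), which was -0.19 without vehicle library 3 and also without all 3 libraries with high Lipf. Adam10 lies on chromosome 9 from 70678997 to 70780229, and Adam17 on chromosome 12 from 21323509 to 21373632, where 4.35% of its exon bases overlap Iah1 on the other strand.

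Adam15, which carries an integrin-binding motif beside its protease domain, averaged 15.0 ± 1.15 scaled FPKM in the vehicle group and 14.2 ± 1.17 in the GA group (SD, n = 6 each), with a log2 difference of -0.08 (standard error 0.08). It is on chromosome 3 from 89338542 to 89349996, and 20.6% of its exon bases overlap 4731419I09Rik on the other strand. Adam19, a sheddase of neuregulins, had medians of 0.868 with vehicle and 0.726 with GA, and its highest level, 2.11 scaled FPKM, was in vehicle library 5. Its log2 difference was -0.23 (standard error 0.33). It ranged from -0.44 without vehicle library 1 to 0.00 without vehicle library 5, and was -0.02 without the libraries with high Lipf. In the 7 with no Y-linked reads, where vehicle library 5 was 1 of 2 vehicle libraries, it was -0.78. Adam19 is on chromosome 11 from 46055992 to 46147343, with 10.1% of exon bases overlapping Gm16033 and Gm16034 on the other strand. The sources used here do not state whether reads were counted by strand, so reads of these overlapping genes cannot be told apart.

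The iRhoms had differences of opposite sign. Rhbdf1 had its lowest, median and highest levels at 8.10, 9.85 and 16.0 scaled FPKM with vehicle and at 9.74, 13.0 and 17.0 with GA. The GA group had 5 libraries above the vehicle median, 3 vehicle libraries were below every GA library, and vehicle library 1 (16.0) was second only to GA library 4 (17.0). The log2 difference was 0.32 (standard error 0.17) and stayed between 0.24 and 0.44 when any library was left out. Rhbdf2 ranged from 5.62 to 7.50 scaled FPKM with vehicle and from 3.95 to 8.54 with GA, with 3 GA libraries on either side of the vehicle median. Its SD was 0.618 with vehicle and 1.72 with GA, and its log2 difference was -0.17 (standard error 0.17), from -0.28 without GA library 6 to -0.07 without GA library 1. Both are on chromosome 11, Rhbdf1 from 32209585 to 32222300 and Rhbdf2 from 116598165 to 116627019.

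**Figure D2:**
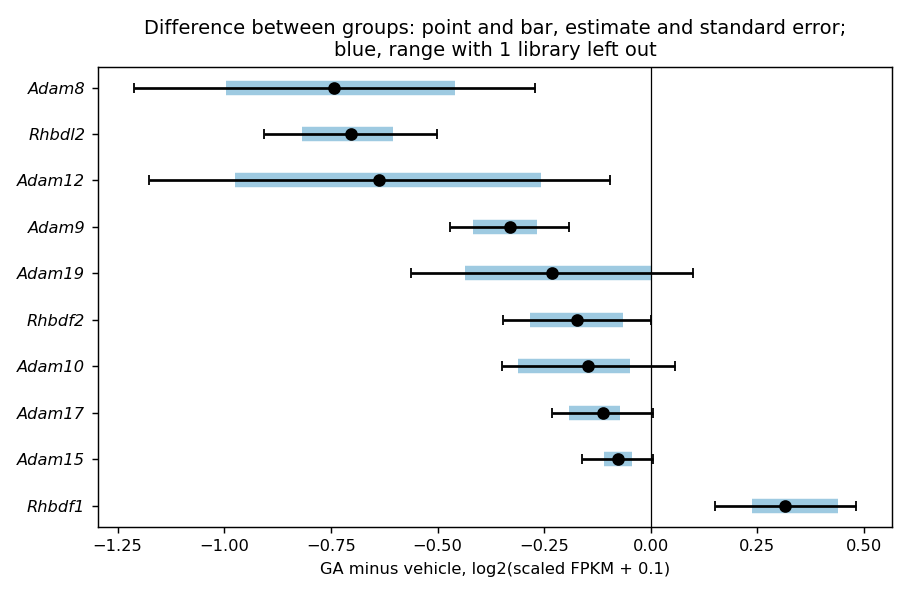
Difference between GA and vehicle for each gene, in log2(scaled FPKM + 0.1), as estimate (point) and standard error (black bar), with the range of estimates after leaving out any 1 library in blue. Adam8 and Adam12 have the widest bars, and Rhbdl2 has a narrow range between -0.82 and -0.60.

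No other gene of the shedding pathway passed the test in the same fit. Of 70 genes in 6 lists, 67 were tested and 0 were called. With GA, 24 were higher and 43 lower, against 8265 of 16847 lower among all tested genes, and their median log2 difference was -0.07. At an unadjusted p below 0.05 there was 1 gene of these lists, Areg (1 of 67, against 2.16% of all tested genes). Adam21, Fasl and Tspan10 were too low to test.

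Other ADAM genes were mostly slightly higher with GA (7 of 9, median 0.15), as were other rhomboid-like genes (7 of 11, median 0.08). Adam28, an ADAM of lymphocytes and epithelium, was alone among these other ADAM genes in averaging 1 FPKM or more, and it was lower with GA. It had 2.18 ± 0.891 scaled FPKM in the vehicle group and 1.64 ± 0.666 in the GA group (SD, n = 6 each). Its log2 difference was -0.38 (standard error 0.29). The 7 higher ADAM genes thus all averaged below 1 FPKM. Among the rhomboids the outermost values were 0.25 (standard error 0.21) for Rhbdl3 and -0.22 (standard error 0.12) for Rhbdd1, a rhomboid protease of the endoplasmic reticulum. None of these 20 genes had an unadjusted p below 0.05.

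Of 10 tested partners of ADAM10 and ADAM17, 8 were lower with GA (median -0.11). Frmd8, which binds the iRhoms and stabilises them at the cell surface, had 10.1 ± 2.41 scaled FPKM in the vehicle group and 8.93 ± 2.69 in the GA group, a log2 difference of -0.18 (standard error 0.20). Furin, a convertase that removes ADAM prodomains, had a difference of -0.24 (standard error 0.19), and Tspan15, a tetraspanin that carries ADAM10, one of 0.27 (standard error 0.32). Among 5 inhibitors, Timp3, the main tissue inhibitor of ADAM17, was at 3.80 ± 1.47 and 4.73 ± 1.23 scaled FPKM in the 2 groups and exceeded the vehicle median in 5 GA libraries, with a difference of 0.36 (standard error 0.26). Timp1 ranged from 0.371 to 140.2 scaled FPKM with vehicle and from 0.398 to 30.6 with GA, so its difference of -1.16 had a standard error of 1.31.

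Of the substrates, 7 of 8 ligands of the EGF receptor family (median -0.17) had lower means with GA on the log2 scale. So did 20 of 24 other shed proteins (median -0.15), against 8265 of all 16847 tested genes. None of these ligands and shed proteins was called. Amphiregulin, Areg, is also reported by the study as significantly downregulated with GA, but was not called here. It had 10.9 ± 6.32 scaled FPKM in the vehicle group and 5.45 ± 3.54 in the GA group. The log2 difference was -1.14 (standard error 0.51, unadjusted p = 0.0441 and adjusted p = 1.00 in limma). Its groups overlapped, at 5.44 to 21.3 and 1.55 to 10.02 scaled FPKM. Egf was the only ligand with a higher mean on the log2 scale (0.02, standard error 0.44). Among other shed proteins the outermost were Notch1 (0.22, standard error 0.20) and Selplg, the P-selectin ligand of leukocytes (-0.59, standard error 0.41).

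The markers used to choose the genes were examined next. Krt13, with 5579 to 22197 scaled FPKM, followed the other 10 genes of the epithelium list, mostly keratin, desmosome and cornification genes. Over the 12 libraries the Pearson r was 0.74 and the rho 0.64, and the r was 0.51 without the libraries with high Lipf. Krt5 and Krt4, keratins of the same epithelium, were at 923.3 scaled FPKM or more in every library. S100a9, with 130.04 to 1594 scaled FPKM, followed S100a8 (r = 0.99) but hardly the other genes of the neutrophil list (r = 0.22, Spearman rho = 0.03). Several of those genes were scarce in some libraries. Mmp8 was at 0 in 5 of 12 libraries, and Csf3r, the G-CSF receptor, ranged from 0.0300 to 16.0 scaled FPKM. Ly6g was at 0 in 10 libraries, was too low to test and did not enter the mean of the list. Il1r2 was at 3.59 scaled FPKM or more in every library. S100a9 is also made by squamous epithelium. The full neutrophil list includes S100a8 and S100a9, so it is not independent of S100a9. In its mean log2 level each tested gene weighs the same, but S100a8 and S100a9 make up most of its summed level. The neutrophil list was highest in vehicle libraries 5 and 4 and GA library 2, with mean log2 levels of 4.57, 3.73 and 3.21 against 0.724 to 1.64 in the other 9. With GA, 9 of its 9 tested genes had lower means on the log2 scale (median -0.74), against 8265 of all 16847 tested genes. The summed level of the list, mostly S100a8 and S100a9, was 1108 to 2617 scaled FPKM with vehicle and 235.1 to 1825 with GA. In whole tissue, fewer cells of a type and less RNA per cell cannot be told apart.

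Adam8 had a higher Pearson r, but not a higher rho, with the neutrophil list than with S100a9. Its r was 0.83 with the list and 0.44 with S100a9 (n = 12 libraries, where both values of a point share the depth and tissue makeup of the library, and no p is given because these values entered the choice). Without the libraries farthest from the median of the list, vehicle libraries 4 and 5, the r with the list was 0.42. Without S100a8 and S100a9 in the list, its r was 0.80 and its rho 0.42. The rho was 0.61 for the full list and 0.64 for S100a9. With Krt13 the r was -0.58, from -0.67 to -0.52 when any library was left out. With the epithelium list the r was only -0.20 and the rho -0.31. Without vehicle libraries 4 and 5 and GA library 2, the difference of Adam8 between GA and vehicle was -0.22, and with the neutrophil list as a covariate it was -0.28. What part neutrophil RNA has in this difference was not tested.

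Adam12 was alike, with r = 0.73 for the neutrophil list, 0.44 for S100a9 and -0.52 for Krt13. Its rho was 0.59 for the neutrophil list and 0.74 for S100a9, and its r with the epithelium list was -0.05. Its r with the neutrophil list was 0.49 without vehicle library 5 and 0.16 without the 2 farthest libraries. Its difference between the groups was -0.04 without the 3 libraries highest in neutrophil genes. Adam19 had r = 0.68 with the neutrophil list, 0.40 without vehicle library 5 and 0.35 without the 2 farthest libraries, and 0.06 with S100a9. Without the 3 libraries highest in neutrophil genes its difference was 0.04, while that of Adam10 was 0.05. Adam9 had r = 0.64 with the list, but 0.30 without the libraries with high Lipf. Its r with Krt13, -0.27, had no stable sign, at -0.75 without vehicle library 1, the library with the most Krt13, and 0.27 without the libraries with high Lipf. Rhbdl2 had no r above 0.35 in size with any of these 4 measures, and its difference was -0.53 without the 3 libraries and -0.67 with the neutrophil covariate.

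Rhbdf1 had r values of the opposite sign to those of Adam8. Its r was 0.65 with Krt13, 0.53 with the epithelium list and -0.72 with the neutrophil list. With Krt13 it was 0.91 within the vehicle group alone (n = 6), but 0.51 without the 2 libraries farthest from the median of Krt13. Without the libraries with high Lipf it was 0.51 with Krt13 and 0.36 with the epithelium list. Without the 2 libraries farthest from the median of the neutrophil list it was -0.54 with that list. Its difference between the groups was 0.26 without the 3 libraries highest in neutrophil genes. Rhbdf2 had the highest r with S100a9, 0.70, but this rested on few libraries: it was -0.06 without the 2 libraries farthest from the median of S100a9 and -0.27 within the vehicle group. Adam15 and Adam17 each had r = 0.61 with the epithelium list and 0.01 and 0.07 with the neutrophil list. Without the libraries with high Lipf, the r with the epithelium list was 0.81 for Adam15 and 0.43 for Adam17. Without the 2 libraries farthest from the median of that list it was 0.67 and 0.36. With Krt13 the r was 0.33 for Adam15 and 0.27 for Adam17.

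**Figure D3:**
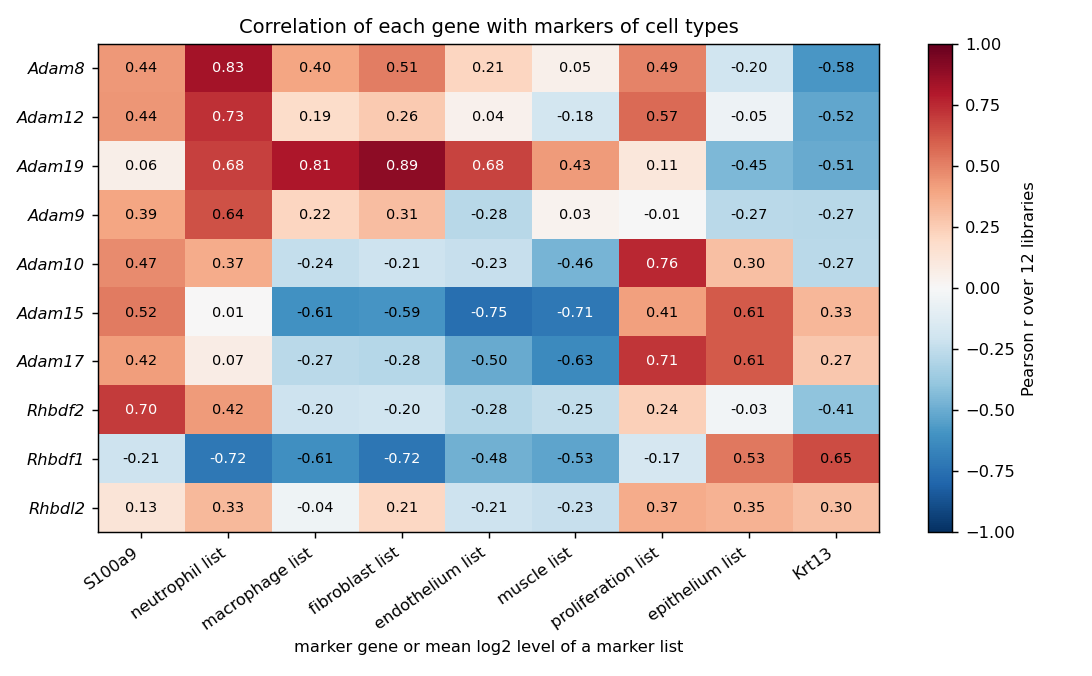
Pearson r over the 12 libraries between each gene (rows) and S100a9, Krt13 or the mean log2 level of a marker list (columns), with the value printed in each cell and red for positive and blue for negative r. Adam8 and Rhbdf1 have opposite signs for the neutrophil list, 0.83 and -0.72, and Adam19 has its highest r, 0.89, with the fibroblast list.

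Correlations with 5 lists that were not among the values used to choose the genes (macrophage, fibroblast, muscle, endothelium and proliferation genes) were tested by permutation. These lists too were drawn up with earlier results of these data known, so the p-values are not fully independent of the data. Of 100 correlations, Pearson and Spearman for 50 pairs, 13 had an adjusted p below 0.1. Adam19 with the fibroblast list was the closest, with r = 0.89 and rho = 0.91 (permutation test, n = 12, unadjusted p = 4e-05 and 7e-05, adjusted p = 0.0035 for each). The r was 0.86 without the 2 most extreme libraries and 0.92 without the libraries with high Lipf, and the adjusted p stayed below 0.1 whichever library was left out. Adam19 also followed the macrophage list (r = 0.81, rho = 0.83, permutation adjusted p = 0.0240 and 0.0340, n = 12), a call lost without vehicle library 1. The 3 lowest libraries of both lists were vehicle library 1, GA library 4 and GA library 6, where Adam19 was at 0.386, 0.474 and 0.582 scaled FPKM, and it was at 2.11 in vehicle library 5, which had the highest fibroblast score. With the endothelium list the r of Adam19 was 0.68 (permutation adjusted p = 0.144, n = 12). With the epithelium list, described without a test, its r was -0.45 and its rho -0.76, and the r was -0.80 without the libraries with high Lipf. The co-variation of Adam19 was thus not particular to the fibroblast list.

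Adam10 co-varied with proliferation genes such as Mki67 and Top2a (r = 0.76, rho = 0.76, permutation adjusted p = 0.0636 and 0.0726, n = 12). Vehicle library 4 and GA library 6 were the highest in both, and the call was lost without vehicle library 1, 3 or 4 or GA library 6. The r of Adam17 with the same list was 0.71 (permutation adjusted p = 0.0755, n = 12), but the adjusted p of its rho was 0.102. Adam15 went against the endothelium list (r = -0.75, rho = -0.79, permutation adjusted p = 0.0340 and 0.0533, n = 12), a call lost without vehicle library 1, where endothelial genes were lowest, and against the muscle list (r = -0.71, adjusted p = 0.0755). Rhbdf1 went against the fibroblast list (r = -0.72, rho = -0.74, permutation adjusted p = 0.0755 for each, n = 12). The last 2 and that of Adam17 held in only 4 of the 12 fits with 1 library left out. Without the libraries with high Lipf (n = 9), the permutation adjusted p of r was 0.0292 for Adam19 with either list and for Adam15 with endothelium, and above 0.1 for the other 4. There were 3 further pairs below 0.1 in these 9 libraries. They were Adam12 with proliferation (r = 0.89, permutation adjusted p = 0.0470, against r = 0.57 and 0.182 over all 12), Adam9 with endothelium (r = -0.86, permutation adjusted p = 0.0477, against -0.28 and 0.695) and Adam8 with proliferation (r = 0.80, permutation adjusted p = 0.0931, against 0.49 and 0.289). Over all 12, Rhbdl2, Adam8, Adam9, Adam12 and Rhbdf2 had no adjusted p below 0.1 with these lists.

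**Figure D4:**
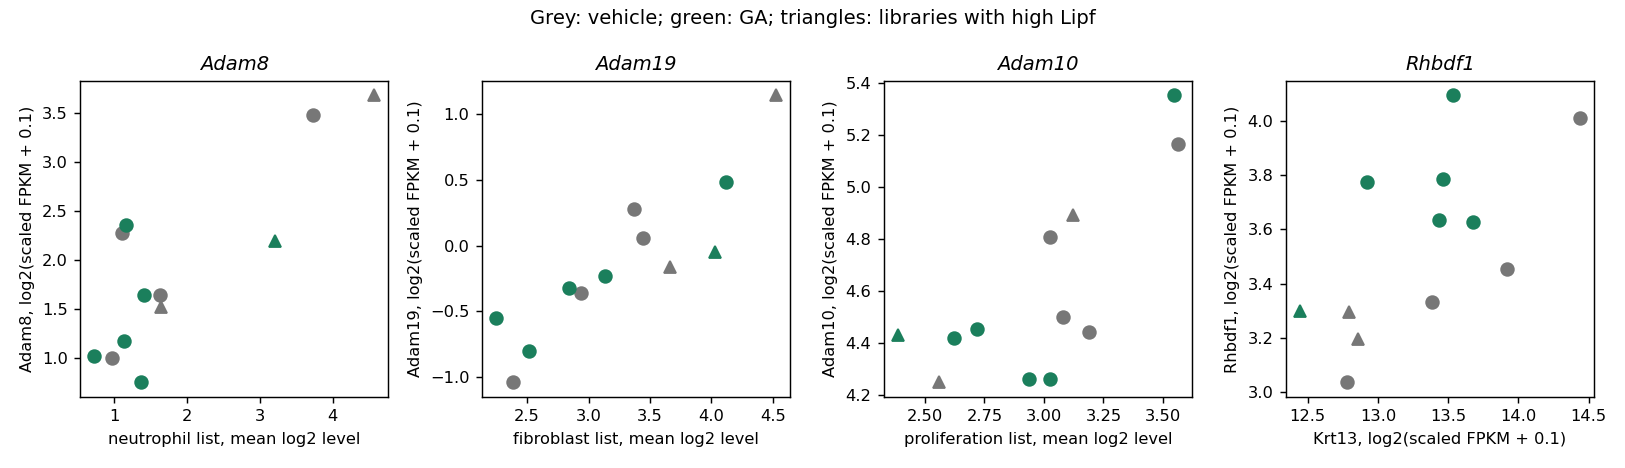
Levels of Adam8, Adam19, Adam10 and Rhbdf1, in log2(scaled FPKM + 0.1), against the neutrophil, fibroblast and proliferation lists (mean log2 level) and Krt13 (log2 level), with 1 point per library, grey for vehicle and green for GA, and triangles for high Lipf. Adam19 forms a steady line over all 12 libraries (r = 0.89), whereas the r of 0.83 for Adam8 depends on 2 vehicle libraries at the upper right.

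Among themselves the 10 genes formed no uniform group. Of 45 pairs, 33 had a positive and 12 a negative r, with a median of 0.29. Adam8 with Adam12 was the closest pair (r = 0.89), followed by Adam10 with Adam12 (0.83, and 0.97 without the libraries with high Lipf), and the most negative was Adam8 with Rhbdf1 (-0.76). Adam15 and Adam17 had r = 0.70, and the iRhoms had r = -0.13 with each other.

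Among the 12162 genes that averaged 1 FPKM or more, those with the highest r over the 12 libraries were Tnfaip3 (0.96), an inhibitor of NF-kB signalling, and Tceal9 (0.96) for Adam8. They were Tnrc18 (0.98) and Pfkp (0.98), a phosphofructokinase, for Adam10, and Ptprk (0.96), a receptor phosphatase, and Tpbg (0.95) for Adam12. For Adam9 they were Gabrp (0.91) and Otulinl (0.90), for Adam15 Tmem183a (0.95) and the keratinocyte fatty acid-binding protein Fabp5 (0.94), and for Adam17 Fkbp15 (0.89) and Zbtb5 (0.89). Adam19 had Arrb1 (0.95) and Arhgdib (0.92). Rhbdl2 had Fam32a (0.89) and Gnb1 (0.87), Rhbdf1 had Baiap2 (0.95) and Tial1 (0.91), and Rhbdf2 had the amino acid transporter subunit Slc3a2 (0.94) and Wdr55 (0.91). These are the highest of many values and are given without a test.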

How the data were processed

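Tongue RNA of 12 mice was sequenced by the authors, aligned to mm10 with HISAT2 and counted per gene with featureCounts from uniquely mapped reads. The strand setting and annotation release are not given in the sources used here. FPKM values were deposited by the authors, 1 table per library. Of 55463 rows, 22965 (41.4%) named no gene, held 16.2 to 25.5% of the FPKM sum and were left out. Totals were recovered with GENCODE M21 exon lengths, less 17.0 to 24.2 bases as fitted per library: 97.8 to 98.3% of values worth 1 to 8 reads were whole within 0.02 reads. FPKM were scaled by trimmed mean of M values (30% and 5% trims, factors 0.913 to 1.08), and the 16847 genes averaging 0.1 FPKM or more were tested with limma 3.58.1 (trend) in R 4.3.3 on log2(scaled FPKM + 0.1), a scale that understates changes of low genes, with Benjamini-Hochberg adjustment. The limits, an adjusted p of 0.1 and a log2 fold change of 0.58, follow the methods of the study, whose edgeR quasi-likelihood test was not run here because the deposited values were FPKM; voom on recovered reads was an alternative. In data simulated as independent normal values per gene, 111 of 200 genes were called when shifted by 1 on the log2 scale and 168 when shifted by 2. Beside them, 7 and 22 unchanged genes were called. Levels of neighbouring genes were compared with exact sign-flip tests and correlations with 100000 permutations, in Python 3.11.15 with scipy 1.17.1.

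The 10 genes and all lists were chosen with earlier results of these data known. Named are these genes, S100a9 and Krt13, Frmd8 and Timp3, in each pathway list the genes with the largest difference in either direction at an average of 1 FPKM or more (any called gene first), and the 2 genes most correlated with each of the 10. Marker genes are named where they check a label. Numbered libraries of the groups did not deviate together (r from -0.37 to 0.08), so no pairing was used. Alternatives changed the pseudocount, filter, scaling, model, covariates and libraries.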

Additional observations from a re-analysis of the deposited data

Results flagged for a closer look

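Among 40 sets of 6 libraries (10 genes, S100a9, Krt13 and 8 marker lists in each group), 6 (15.0%) held a highest or lowest library set apart from the next by more of the range of its group than the critical value of Dixon's test. Chance gives about 1 in 20. Adam10 was highest in GA library 6, which lay 0.824 of the GA range above the next library. Adam17 was lowest in vehicle library 3, at 0.693 of the vehicle range. GA library 2 was apart in 3 marker lists, with the highest neutrophil list (0.724) and gland list (0.916) and the lowest epithelium list (0.671) of the GA group. The endothelium list was lowest in vehicle library 1, at 0.640 of the vehicle range.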

How the results depend on the processing

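Across 28 alternatives to the comparison of GA with vehicle, 0 of the 10 genes and 0 pathway genes were called. Over all genes, 2 were called among the libraries without Y-linked reads (Gm25290 and Gm23390) and 1 without the 3 libraries highest in neutrophil genes (Gm25290), both alternatives chosen after seeing the data, as was the neutrophil list term. With 1 library left out the count was 0 to 1, again Gm25290, without vehicle library 4; these names were chosen after their values were seen. Fitting the replicate number as a block called 0 genes, with 244 at an unadjusted p below 0.05, and no same-numbered library was the best match of its vehicle partner (0 of 6). In all alternatives, 8 of the 10 genes kept the sign of their difference. Adam10 was higher with GA without the libraries highest in neutrophil genes, and Adam19 there and with the neutrophil list term. The range was -1.48 to -0.22 for Adam8, -1.24 to -0.04 for Adam12, -0.78 to 0.04 for Adam19, -0.31 to 0.05 for Adam10, -0.29 to -0.01 for Rhbdf2 (nearest 0 with S100a9 as a covariate), -0.19 to -0.06 for Adam17, -0.84 to -0.47 for Rhbdl2 (nearest 0 with a pseudocount of 1) and 0.19 to 0.44 for Rhbdf1; the causes were not tested. Neighbouring levels that differed numbered 8 to 9 in 16 alternatives. Correlations with an adjusted p below 0.1 numbered 2 to 22 with 1 library left out, 2 without vehicle library 1, 5 without vehicle library 3, 6 without GA library 6 and 22 without vehicle library 5, and 9 without the libraries with high Lipf. Depth limits Adam12 (17 to 337 reads), Adam19 (51 to 335) and Rhbdl2 (75 to 224) most.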
